A study of Mus musculus with 2 samples.

Results

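Regulatory T cells were taken from 2 single-cell RNA-seq libraries of mouse Achilles tendon enthesis, the place where the tendon joins the bone. A cell was counted as a regulatory T cell when it held at least 1 unique molecular identifier (UMI, 1 count per captured RNA molecule) of Foxp3, at least 2 UMIs summed over Cd3d, Cd3e and Cd3g, and under 0.5% of its UMIs from the collagen genes Col1a1, Col1a2 and Col3a1. Barcodes with fewer than 300 genes or over 20% mitochondrial UMIs were not used. This left 275 regulatory T cells of 25430 cells: 72 of 10947 in the non-suspended library and 203 of 14483 in the suspended library. They were compared with Foxp3-negative T cells, which held at least 1 Trac UMI (Trac encodes the constant region of the T cell receptor alpha chain) and no Foxp3 UMI. There were 483 of these in the non-suspended library and 594 in the suspended library.

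Both libraries came from SKG mice, a strain with a mutation in Zap70, the kinase that passes on the T cell receptor signal. The non-suspended library was made from mice without tail suspension and the suspended library from mice with it, which takes the load off the hind limbs. Ages, the number of mice in each library and the length of suspension are not given in the sources used here, and no arthritis-inducing agent is named in them. There is no wild-type library, so the Zap70 mutation is common to all cells described. With 1 library per condition, the effect of suspension cannot be told apart from differences between mice or preparations. No test was made and cells were not treated as replicates. The 95% intervals given are exact and cover counting error only.

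Foxp3 is the transcription factor that fixes the identity of regulatory T cells, the T cells that restrain immune responses. These cells carry the high-affinity interleukin-2 receptor alpha chain (Il2ra, CD25), the inhibitory receptor Ctla4, which takes costimulatory ligands from antigen-presenting cells, and, in many of them, the transcription factor Helios (Ikzf2). In skin, fat, muscle and other non-lymphoid tissue a share of them carries the interleukin-33 receptor Il1rl1 (ST2) and the lectin-like receptor Klrg1. Such cells can secrete amphiregulin (Areg), an epidermal growth factor receptor ligand with a part in tissue repair.

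Foxp3 itself (X:7573644-7595245, plus strand, GRCm38) chose the cells, so its values are a description. Members held 228 Foxp3 UMIs in the non-suspended library, a level of 444.7 CPM (counts per 1e6, the UMIs of a gene scaled to 1e6 UMIs in the group), and 587 in the suspended library, 380.8 CPM. The median was 3 Foxp3 UMIs per cell without suspension and 2 with it, and the highest cells held 13 and 12. Just inside the limit, 15 and 58 members held a single Foxp3 UMI. Just outside the others, 11 and 24 Foxp3-positive cells had fewer than 2 Cd3 UMIs, and 4 and 23 failed the collagen limit. The highest collagen share among members was 0.299% and 0.483%, and the lowest among the cells refused was 2.61% and 0.594%, in the same order of libraries.

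The label was checked with Il2ra, Ctla4 and Ikzf2, which took no part in the choice. At least 2 of the 3 were found in 71 of 72 members without suspension and in 186 of 203 with it. All 3 were found in 62.5% and 58.6% of members. Of the Foxp3-negative T cells, 26.5% and 19.4% held exactly 2 of the 3, and 5.18% and 4.55% held all 3. Ctla4 was found in 95.8% and 92.6% of members, Il2ra in 81.9% and 79.8%, and Ikzf2 in 83.3% and 77.3%. B cells, which should lack most of these transcripts, gave 1.77% and 0.984% for Ctla4, 8.85% and 0% (of 305 cells, at most 1.20%) for Il2ra and 0.885% and 0.656% for Ikzf2. The B cells' median depths were 4201 and 2542 UMIs, against 5570.5 and 5227 in members. Members with a single Foxp3 UMI were the shallower ones, with medians of 3976 and 3576 UMIs against 5981 and 6102 in the rest. They held 848 and 614 CPM of Ikzf2, beside 879.8 and 737 CPM in members with 2 or more Foxp3 UMIs. Their Il2ra was lower, at 424 and 549 CPM beside 651 and 839.7 CPM, and their Ctla4 stood at 1771 and 635 CPM beside 1169 and 788 CPM. Foxp3 UMIs were rare elsewhere: 0 of 113 and 1 of 305 B cells, 0 of 1280 and 3 of 1469 macrophages, and 3 of 1551 and 8 of 3761 fibroblasts held any.

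The libraries held 11430 and 15545 barcodes and 121868851 and 166606774 UMIs. Members ranged from 1339 to 31013 UMIs without suspension and from 1291 to 34795 with it, and no barcode sequence was shared between members of both libraries. Ribosomal protein genes took 14.7% of members' UMIs without suspension and 22.3% with it, and 16.8% and 23.7% in Foxp3-negative T cells. RNA of other cells was present. The 12 fibroblast markers summed to 727 CPM in members of the non-suspended library and 7564 CPM in those of the suspended library, where 54.6% of the list's UMIs came from 1 cell and Prg4, the joint lubricant gene, reached 5926 CPM. A Prg4 UMI was found in 99.5% of members there, as in all 305 B cells. The 13 neutrophil markers summed to 10288 and 5730 CPM, the 12 macrophage markers to 2742 and 1556 CPM (41.1% from 1 cell without suspension) and the 9 B cell markers to 140 and 130 CPM. Of these B cell markers Ms4a1, Pax5 and Fcmr were at 0 without suspension. The 2 CD8 markers summed to 25.4 and 14.3 CPM against 140 and 90.4 CPM in Foxp3-negative T cells. The part of these transcripts in the results was not tested, except where values without such cells are given.

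Regulatory T cells were a larger share of the suspended library. They were 0.658% (0.515 to 0.828) of all cells without suspension and 1.40% (1.22 to 1.61) with it. Members plus Foxp3-negative cells with Trac, counted here as the T cells, made up similar shares, 5.07% and 5.50% of the cells. Members needed no Trac UMI, and 10 and 34 of them had none. Within the T cells, members were 13.0% (10.3 to 16.1) without suspension and 25.5% (22.5 to 28.6) with it. Against comparison cells that held Cd4 and no Cd8a or Cd8b1 UMI, the shares were 24.3% (19.5 to 29.6) and 48.3% (43.5 to 53.2). Of cells with a UMI of the leukocyte gene Ptprc they were 0.876% (0.684 to 1.11) and 2.94% (2.55 to 3.37). The intervals did not overlap on any of these denominators.

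Depth bears on this share, since Foxp3 and Cd3 transcripts can be missed and both limits were applied again. With all UMIs, members held a median of 3 and 2 Foxp3 UMIs and of 18 and 11 Cd3 UMIs. The part of each limit in the reduced shares was not tested. When every cell was reduced to 1000 UMIs and the rule applied again, 27 and 47 members were left. They were then 9.85% (6.59 to 14.01) and 15.1% (11.3 to 19.5) of the T cells, and 0.251% (0.165 to 0.365) and 0.337% (0.248 to 0.448) of the cells. At this depth both pairs of intervals overlapped. The reduction left out 178 and 526 cells under 1000 UMIs.

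**Figure D1:**
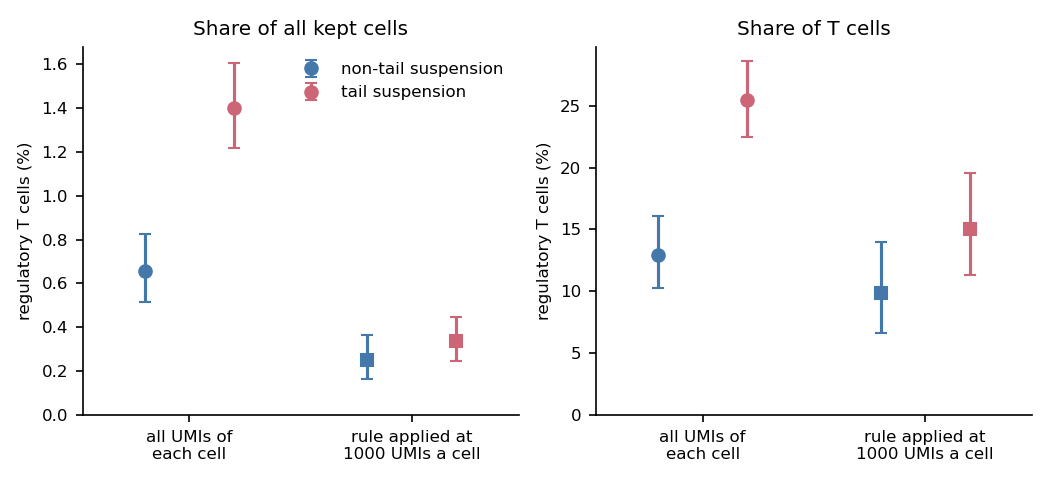
Regulatory T cells as percent of all cells (left) and of T cells (right) in the non-suspended (blue) and suspended (red) library, with circles for all UMIs of each cell, squares for the rule applied at 1000 UMIs a cell, and bars for exact 95% intervals. Of T cells, 13.0% were regulatory without suspension and 25.5% with it, and after reduction to 1000 UMIs per cell the 2 intervals overlap.

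Receptors, transcription factors and effector genes known from regulatory T cells stood higher in members than in Foxp3-negative T cells. Ranked by the interval bound nearest to 0, the first 15 were Klrg1, Ikzf2, Izumo1r, Neb, Gzmb, Tnfrsf9, Il2ra, Ikzf4, Itgae, Tnfrsf4, Gpr55, Arl5a, Il1rl1, Penk and Tnfrsf18. Within the non-suspended library 819 of 10672 measured genes (7.67%) were at least 2-fold higher in members, and within the suspended library 530 of 11482 (4.62%). Of 10441 genes with at least 20 UMIs in each library, 216 (2.07%) were at least 2-fold higher in members in both libraries and 811 (7.77%) at least 2-fold lower. Of the lower genes, the 10 chosen by rank were stromal, among them Postn, Sparc and Col5a1, and only the members carry the collagen limit. Against the 415 and 473 Foxp3-negative T cells that also met the Cd3 and collagen limits, 129 of 8798 genes (1.47%) were at least 2-fold higher in both libraries and 149 (1.69%) lower. Without cells in which markers of 1 other cell type exceeded 2% of UMIs (8 and 6 members, 81 and 104 comparison cells), the counts were 125 and 171.

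Of 17 measured genes of a regulatory T cell identity list, 9 were at least 2-fold higher in both libraries and none lower, and 15 lay above 0 in both. The median log2 ratios were 1.79 without suspension and 2.14 with it, against 0.02 and 0.01 over all genes. This list holds the marker genes of the cells and is no independent evidence of its direction. Ikzf2 (1:69531214-69687245, minus strand) stood at 876 and 707 CPM in members and at 28.2 and 52.5 CPM in Foxp3-negative T cells, a log2 ratio of 4.96 (4.68 to 5.25) and 3.75 (3.56 to 3.94). Ikzf4, which encodes its relative Eos, stood at 103 and 73.3 CPM against 5.89 and 9.47 CPM. Izumo1r, the folate receptor 4 gene, stood at 273 and 113.5 CPM against 5.89 and 9.65 CPM. Members were above comparison cells in both libraries for all 3 genes. The log2 ratio of Izumo1r was 5.54 (4.94 to 6.18) without suspension and 3.56 (3.102 to 4.03) with it, and neither its intervals nor those of Ikzf2 overlapped between libraries.

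Il2ra (2:11642807-11693193, plus strand) stood at 622 and 770.1 CPM in members and at 95.5 and 81.7 CPM in comparison cells, log2 ratios of 2.70 (2.49 to 2.91) and 3.24 (3.08 to 3.40). It was found in 34.8% and 26.9% of comparison cells. Ctla4 (1:60887000-60915832, plus strand) stood at 1246 and 751 CPM against 359.9 and 169 CPM, log2 ratios of 1.79 and 2.16, and was found in 68.3% and 48.5% of comparison cells. Both genes were therefore enriched in members without being restricted to them. Ikzf2 was found in 9.11% and 13.8% of comparison cells. The other interleukin-2 receptor chain of the list, Il2rb, had log2 ratios of 0.49 and 0.80, and of -0.10 and 0.21 against the comparison cells within the Cd3 and collagen limits. Nrp1, a semaphorin co-receptor often seen on thymus-derived regulatory T cells, had log2 ratios of -0.43 (-1.23 to 0.29) and -0.34 (-0.80 to 0.10), and against the comparison cells within those limits of 0.13 and 0.01.

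Receptors of the tumour necrosis factor family were among the most abundant of these genes. They pass costimulatory signals that activate NF-kB and help regulatory T cells survive and divide. Tnfrsf4 (OX40; 4:156013843-156016612) stood at 1141 and 561 CPM in members against 110.2 and 98.8 CPM in comparison cells. Tnfrsf9 (4-1BB; 4:150914562-150946102) stood at 1088 and 546 CPM against 95.9 and 83.0 CPM. Tnfrsf18 (GITR; 4:156026164-156028895) stood at 991 and 526 CPM against 99.9 and 119.7 CPM. Tnfrsf18 was found in 93.1% and 89.2% of members and in 45.8% and 48.0% of comparison cells. Of 20 genes of a TNF receptor and NF-kB list, 4 were at least 2-fold higher in both libraries, 3 of them these receptors, and none lower.

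Promoters of 3 of these genes and of Foxp3 are shown because the genes define or rank highest in the cells and each window shown holds a motif searched for. The windows are RefSeq's 250 bases before to 50 bases after a transcript start (GRCm38.p6). Capitals mark the match: TTCNNNGAA, the form bound by STAT factors such as STAT5, which acts downstream of the interleukin-2 receptor, in the first 3, and TGTTTAC, a forkhead motif, read on the opposite strand in the last. The windows are chrX:7580233-7580532, chr4:156026072-156026371, chr4:150927749-150928048 and chr1:40439379-40439678, all on the plus strand. Foxp3, Tnfrsf9 and Il1rl1 each have another window, not shown, that holds neither motif. These lie at chrX:7579426-7579725, chr4:150919905-150920204 and chr1:40429320-40429619.
Foxp3: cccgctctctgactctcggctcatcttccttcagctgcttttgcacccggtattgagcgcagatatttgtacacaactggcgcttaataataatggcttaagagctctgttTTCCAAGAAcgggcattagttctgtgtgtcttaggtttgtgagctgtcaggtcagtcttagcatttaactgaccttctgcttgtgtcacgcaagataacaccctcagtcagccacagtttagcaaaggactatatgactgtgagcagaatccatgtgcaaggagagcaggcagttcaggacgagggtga
Tnfrsf18: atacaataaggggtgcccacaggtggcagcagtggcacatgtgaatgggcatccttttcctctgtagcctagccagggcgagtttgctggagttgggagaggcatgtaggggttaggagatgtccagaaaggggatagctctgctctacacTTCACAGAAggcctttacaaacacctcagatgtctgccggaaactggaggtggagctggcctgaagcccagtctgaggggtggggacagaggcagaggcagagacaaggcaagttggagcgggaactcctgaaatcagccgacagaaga
Tnfrsf9: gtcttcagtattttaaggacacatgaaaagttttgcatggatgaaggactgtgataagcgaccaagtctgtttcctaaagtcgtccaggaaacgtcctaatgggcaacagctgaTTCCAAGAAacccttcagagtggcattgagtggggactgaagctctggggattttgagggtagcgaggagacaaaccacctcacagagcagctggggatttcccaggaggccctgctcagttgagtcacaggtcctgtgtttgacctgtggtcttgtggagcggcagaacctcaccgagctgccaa
Il1rl1: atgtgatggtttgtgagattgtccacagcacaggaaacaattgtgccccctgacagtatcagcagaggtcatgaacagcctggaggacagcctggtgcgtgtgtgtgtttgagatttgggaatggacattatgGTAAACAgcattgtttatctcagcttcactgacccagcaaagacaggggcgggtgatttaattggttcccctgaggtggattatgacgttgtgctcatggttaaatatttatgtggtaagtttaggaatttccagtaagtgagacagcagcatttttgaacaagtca
Both strands were searched. Of the 15 genes ranked highest in members, 9 had entries in the table, with 11 windows. TTCNNNGAA was found in 4 of the 11 windows (Gpr55, Gzmb, Tnfrsf18 and Tnfrsf9) and in 8.30% of all 32851 windows. TGTTTAC was found in 1 of the 11, Il1rl1, and in 3.65% of all windows. These are matches of letters and were not measured as binding.

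Suppressive effector genes were higher as well. Of 15 measured, 8 were at least 2-fold higher in both libraries and none lower, with 13 above 0 in both, and 4 of 14 were so against the comparison cells within the Cd3 and collagen limits. Without the cells with over 2% of UMIs from markers of another cell type the count was 3 of 13. Gzmb (14:56258838-56262260), the granzyme B gene, stood at 930.3 and 461 CPM against 64.3 and 62.8 CPM, and 17.2% and 13.8% of members' Gzmb UMIs came from 1 cell. It was found in 37.5% and 41.4% of members, a part of the population. Il10, the gene of an inhibitory cytokine, stood at 46.8 and 72.7 CPM against 20.2 and 7.61 CPM and was found in 13.9% and 12.3% of members, with 29.2% and 28.6% of its UMIs in 1 cell. Macrophages held an Il10 UMI in 39.1% and 22.2% of cells. Ebi3, a subunit of interleukin-35, stood at 21.4 and 22.7 CPM against 3.78 and 4.46 CPM, and Itgb8, part of the integrin that activates TGF-beta, at 44.9 and 26.6 CPM against 6.31 and 10.9 CPM. Lrrc32, which anchors latent TGF-beta to the surface, had log2 ratios of 0.12 (-1.07 to 1.12) and 0.42 (-0.15 to 0.96). Against the comparison cells within the Cd3 and collagen limits Lrrc32 was higher in members, with log2 ratios of 3.12 (1.46 to 4.89), on 9 and 6 UMIs, and 1.58 (0.83 to 2.35). Against these cells the non-suspended ratio of Il10 was 0.69 (-0.03 to 1.36).

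Genes of tissue regulatory T cells and repair were mixed. Of 16 measured, 6 were at least 2-fold higher in both libraries and none lower, with medians of 0.76 and 0.70. Against the comparison cells within the Cd3 and collagen limits 3 of 16 were, with medians of 0.39 and 0.42. Klrg1 (6:122270596-122282882, minus strand) stood at 125 and 190.1 CPM against 3.995 and 8.91 CPM. Il1rl1 (1:40429570-40465415, plus strand) stood at 183 and 263 CPM against 31.3 and 54.0 CPM. Penk, which encodes the precursor of enkephalin, stood at 466 and 136 CPM against 15.1 and 26.2 CPM, but 29.3% and 22.5% of its UMIs came from 1 cell. Batf and Maf, transcription factors of effector T cells, were higher by log2 ratios of 1.24 and 1.31 and of 1.63 and 1.13, and against the comparison cells within those limits of 0.67 and 0.62 and of 1.14 and 0.71. Areg stood at 111 CPM in members against 187 CPM in comparison cells without suspension, and at 154 against 96.0 CPM with it. The higher level with suspension was not found against the comparison cells within those limits, which held 143 CPM of Areg, a log2 ratio of 0.10 (-0.13 to 0.33). Irf4 had log2 ratios of -0.63 (-1.79 to 0.34) and 0.25 (-0.20 to 0.69), and Rora of 0.23 and 0.11. Within those limits they stood at -1.24 and -0.26 for Irf4 and at -0.29 in both libraries for Rora. Among ranked genes outside the lists, Neb, which encodes the muscle protein nebulin, stood at 97.5 and 46.7 CPM against 2.31 and 3.71 CPM, and Gpr55, a lipid receptor gene, at 33.2 and 20.1 CPM against 1.89 and 2.04 CPM.

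**Figure D2:**
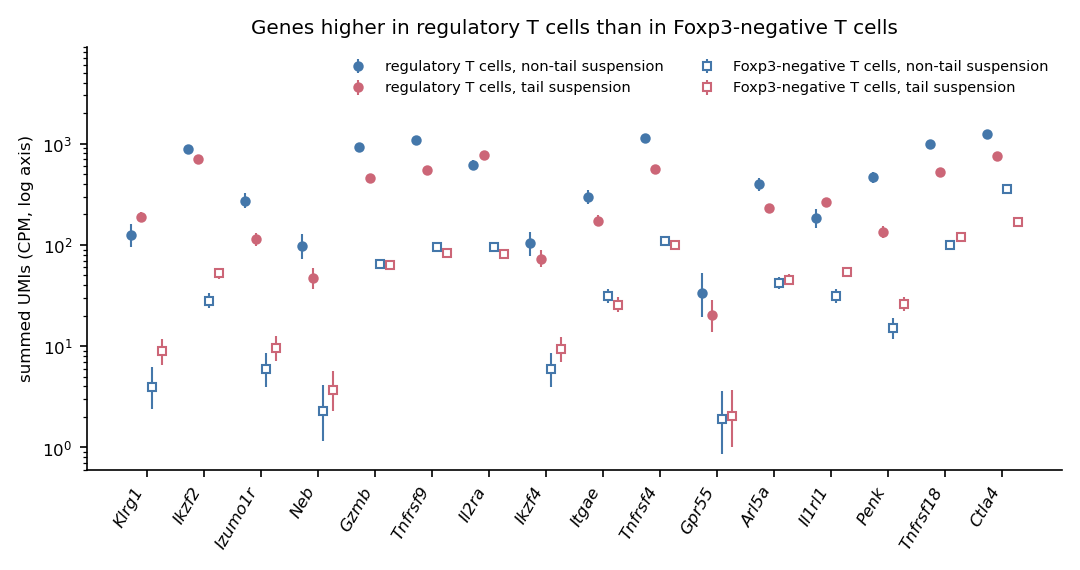
Summed UMIs in CPM (vertical log axis) of the 15 genes ranked highest in regulatory T cells and of Ctla4, with filled circles for regulatory T cells, open squares for Foxp3-negative T cells, blue for the non-suspended and red for the suspended library, and bars for exact 95% counting intervals. Filled circles lie above open squares for every gene and library; for Ikzf2 they are at 876 and 707 CPM against 28.2 and 52.5 CPM.

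Of 20 chemokine receptor and adhesion genes, 4 were at least 2-fold higher in members in both libraries and 1 lower, and 14 lay above 0 in both. Against the comparison cells within the Cd3 and collagen limits 1 of 20 was higher and 1 lower, with medians of 0.05 and 0.26. Ccr2, a receptor for monocyte chemoattractants, stood at 714 and 516.5 CPM against 135 and 134 CPM and was found in 83.3% and 75.9% of members. Macrophages, which use the gene too, held it in 46.7% and 52.6% of cells. Itgae, which is not in this list, encodes the CD103 integrin chain that binds epithelial cadherin. It stood at 300.3 and 174 CPM against 31.3 and 25.6 CPM. Cxcr3, a receptor for interferon-induced chemokines, stood at 133 and 27.9 CPM against 13.0 and 8.72 CPM. Cxcr6, by contrast, was lower in members, at 162 and 55.8 CPM against 424 and 126 CPM.

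Helper and cytotoxic genes were lower in members. Of 14 helper genes, 7 were at least 2-fold lower in both libraries and none higher, and 5 of 12 were lower against the comparison cells within the Cd3 and collagen limits. Il17a stood at 44.9 and 9.73 CPM against 266 and 65.2 CPM, and 73.9% and 53.3% of members' UMIs came from 1 cell. Il17f stood at 19.5 and 14.9 CPM against 114 and 107 CPM. Il17a or Il17f was found in 2.78% and 4.43% of members and in 36.4% and 17.5% of comparison cells. Ifng stood at 37.1 and 1.30 CPM against 179 and 13.9 CPM.

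Of 13 cytotoxic genes, 8 were at least 2-fold lower and 1, Gzmb, higher. Against comparison cells with Cd4 and without Cd8, 2 of 9 were lower and 1 higher. Among the genes ranked lowest against the comparison cells within the Cd3 and collagen limits, a ranking added after the stromal genes had been seen, were Ccl5, Klrc1, Cd8a, Cd8b1 and Tcf7. Tcf7, a factor of naive and memory T cells, stood at 3.90 and 13.6 CPM in members against 77.6 and 95.5 CPM. Tnfsf8, the gene of CD30 ligand, stood at 25.4 and 16.2 CPM against 278 and 179.8 CPM, with log2 ratios of -3.46 and -3.47. Nrgn, a calmodulin-binding protein gene best known from neurons, stood at 19.5 and 1.95 CPM against 354 and 134 CPM.

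Some interferon-inducible genes were higher in members than in comparison cells. Of 26 measured in both, 8 were at least 2-fold higher in both and none lower, and 16 lay above 0 in both. The other 10 had opposite signs in the 2 libraries, and within the suspended library 8 of 27 lay below 0, 2 of them at least 2-fold. Against the comparison cells within the Cd3 and collagen limits 6 of 25 were higher, with medians of 1.08 and 0.54, and without cells with other markers 7 of 25. Gbp7, a guanylate-binding protein gene, stood at 359 and 149.9 CPM against 84.9 and 39.4 CPM. Gbp3 stood at 218 and 109 CPM against 51.3 and 21.0 CPM, and Ifi27l2a at 1256 and 895 CPM against 248 and 247 CPM. Members of gene families with similar sequences, such as the guanylate-binding proteins and class I genes, are uncertain where reads could be split between them.

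Of 24 antigen receptor signalling genes, 4 were at least 2-fold higher in both libraries and none lower, and 1 was against the comparison cells within the Cd3 and collagen limits. Cd2, an adhesion and costimulation receptor, had log2 ratios of 1.74 and 1.64. Zap70, the gene mutated in the strain, stood at 58.5 and 47.4 CPM in members against 88.9 and 52.2 CPM, with log2 ratios of -0.60 (-1.19 to -0.07) and -0.14 (-0.53 to 0.24). Against the comparison cells within the Cd3 and collagen limits Zap70 was lower in both libraries, at -1.21 (-1.79 to -0.67) and -0.73 (-1.13 to -0.35). A transcript level says nothing of the mutant protein. Of 18 genes of the interleukin-2 and STAT5 list, 1, Il2ra, was at least 2-fold higher in both libraries. Of 18 class I antigen presentation genes 16 lay above 0 in both, with none past 2-fold in both. No gene of 23 immediate-early and dissociation genes passed 2-fold in both libraries, and 18 lay below 0 in both. Their medians were -0.50 and -0.49, and -0.03 and -0.01 against the comparison cells within the Cd3 and collagen limits.

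Genes of tissue regulatory T cells were detected in part of the members. A cell without a UMI may still express the gene. A UMI of Il1rl1, Klrg1 or Areg, taken here as a tissue set, was found in 59.7% (47.5 to 71.1) of members without suspension and in 76.4% (69.9 to 82.0) with it. After reduction to 1000 UMIs the shares were 27.8% and 41.9%. Foxp3-negative T cells gave 25.1% and 23.6% for the set with all UMIs, and 10.4% and 7.80% at 1000 UMIs. With all UMIs, B cells gave 5.31% and 4.59%, and fibroblasts, in which Il1rl1 is common, 30.5% and 21.9%. Ccr7, a lymph node homing receptor of recirculating T cells, stood at 115 CPM in members without suspension and 80.5 CPM with it, and at 36.2 and 73.9 CPM in Foxp3-negative T cells. Within the tissue set, Klrg1 was found in 30.6% and 40.4% of members and Il1rl1 in 44.4% and 51.7%, while Areg was found in 30.6% and 30.0%.

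**Figure D3:**
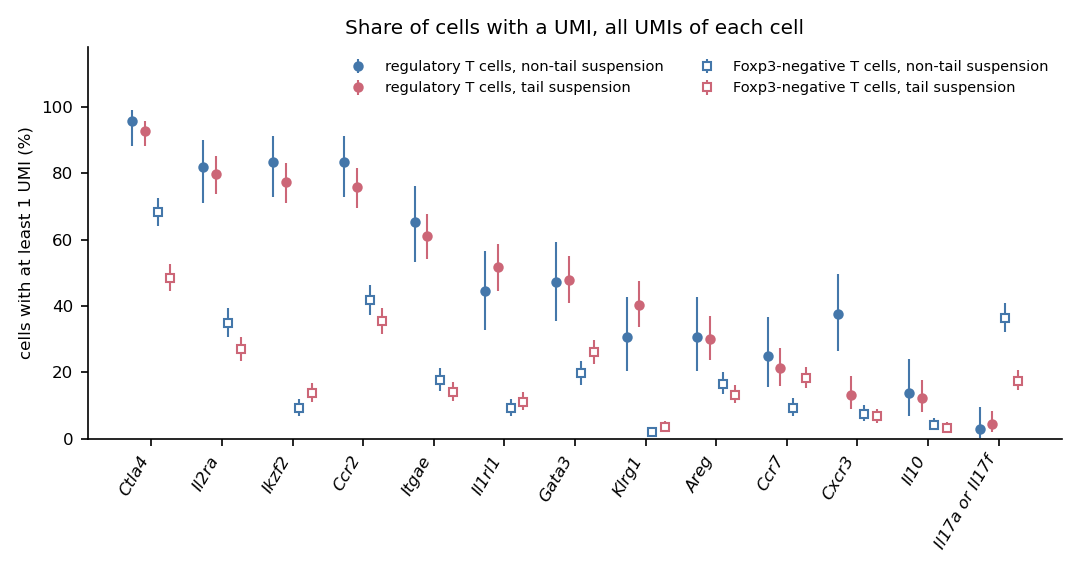
Percent of cells with at least 1 UMI of each gene (vertical axis), with filled circles for regulatory T cells, open squares for Foxp3-negative T cells, blue for the non-suspended and red for the suspended library, and bars for exact 95% intervals. Cxcr3 is found in 37.5% of regulatory T cells without suspension and 13.3% with it, and Il17a or Il17f in 36.4% and 17.5% of Foxp3-negative T cells.

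Between the libraries, levels in members were compared as suspended over non-suspended. Of 8077 genes with at least 20 UMIs over both libraries, 919 (11.4%) were at least 2-fold higher with suspension and 596 (7.38%) at least 2-fold lower. With mitochondrial and ribosomal genes left out of the totals the counts were 1100 and 411, and every log2 ratio moved up by 0.14. In Foxp3-negative T cells 7.2% of genes were higher and 6.28% lower. Foxp3 stood at a log2 ratio of -0.22 (-0.45 to 0.00), Ikzf2 at -0.31 (-0.47 to -0.15) and Il2ra at 0.31.

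Interferon-inducible genes were lower in the suspended library in both T cell populations. All 26 measured were lower in members of the suspended library, 22 of them at least 2-fold, with a median log2 ratio of -1.51 against -0.04 over all genes. The Foxp3-negative T cells showed the same direction in 28 of 28 genes, with 18 at least 2-fold lower and a median of -1.23. Isg15 (4:156199424-156200818, minus strand), a ubiquitin-like modifier, stood at 158 CPM in members without suspension and 31.8 CPM with it, a log2 ratio of -2.31 (-2.85 to -1.78), and at -2.11 in comparison cells. Gbp2 stood at 142 and 18.2 CPM, -2.97 (-3.65 to -2.32). Cells without a Cd3 UMI were lower with suspension too, at -3.58 for Isg15 and -2.33 for Gbp2. For these genes the difference was therefore not confined to T cells. At 1000 UMIs per cell the log2 ratios in members were smaller, -1.13 for Isg15 and -1.23 for Gbp2. Of 12 interferon genes measured at that depth 12 were lower, 6 of them at least 2-fold, with a median of -1.07. Zbp1, a sensor of nucleic acids, stood at 239.9 and 67.5 CPM. Among the interferon genes Ifi27l2a had a log2 ratio of only -0.49 in members and of -0.00 in comparison cells. Without members with over 2% of UMIs from other markers, 24 of 24 measured genes were lower, 17 of them at least 2-fold, and without cells with B cell or macrophage markers 24 of 24 and 15.

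Class I antigen presentation genes, many of them interferon targets, were lower too. All 18 were below 0 in members, 12 of them at least 2-fold, with a median of -1.18. In comparison cells 18 of 18 were lower and 11 at least 2-fold, with a median of -1.34. H2-K1 stood at 3173 CPM in members without suspension and 1413 CPM with it, a log2 ratio of -1.17. Psmb8, an immunoproteasome subunit gene, stood at 936 and 407 CPM, and Tap1, a chain of the peptide transporter, at 256 and 75.3 CPM. B2m, the invariant light chain, differed less, at 4105 and 2827 CPM, a log2 ratio of -0.54.

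The 3 costimulatory receptors were lower in suspended members. Tnfrsf4 stood at -1.02 (-1.18 to -0.87), Tnfrsf9 at -0.996 (-1.15 to -0.84) and Tnfrsf18 at -0.91 (-1.07 to -0.75), beside -0.16, -0.21 and 0.26 in Foxp3-negative T cells. Of 20 genes of the TNF receptor and NF-kB list, 18 were below 0, with a median of -0.73. Comparison cells had 15 of 20 below 0 and a median of -0.48. Only 2 of the 20 were at least 2-fold lower in members, a share of 10% near the 7.38% of all genes. Of 24 antigen receptor signalling genes, 23 were below 0 and none past 2-fold, with a median of -0.62 beside -0.60 in comparison cells. The feedback inhibitors Nfkbia and Tnfaip3 stood at -0.84 and -1.10 in members. Of 17 identity genes, 13 were below 0 and 4 at least 2-fold lower, with a median of -0.50 against -0.21 in comparison cells. Of 15 suppressive effector genes, 10 were below 0 and 5 at least 2-fold lower, Lag3 among them at 216.5 and 62.9 CPM. Comparison cells gave a similar median for this list, -0.68 beside -0.75 in members.

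Cxcr3 stood at 133 CPM in members without suspension and 27.9 CPM with it, a log2 ratio of -2.25 (-2.83 to -1.68), and at -0.58 in comparison cells. It was found in 37.5% of members without suspension and 13.3% with it, beside 7.45% and 6.73% of comparison cells. At 1000 UMIs per cell the log2 ratio of Cxcr3 was -0.65, and 5 of 72 members (6.94%) and 8 of 203 (3.94%) held a UMI. Klrg1 stood at 0.61 (0.21 to 1.02) and Il1rl1 at 0.52 (0.19 to 0.86) in members, beside 1.16 and 0.79 in comparison cells. Of the 16 tissue and repair genes, 1 was at least 2-fold higher and 2 lower, beside 11.4% and 7.38% of all genes. The list's median was -0.39 in members and -0.42 in comparison cells.

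Of 20 cell-cycle genes, 15 were above 0 in suspended over non-suspended members and 6 at least 2-fold higher, with a median of 0.74 against 0.05 in comparison cells. Without cells with B cell or macrophage markers 13 of 20 were at least 2-fold higher, with a median of 1.44. Mki67 stood at 76.1 CPM without suspension and 141 CPM with it, a log2 ratio of 0.89 (0.39 to 1.42), and at -0.55 in comparison cells. A Mki67 UMI was found in 19.4% and 20.2% of members, and 30.8% of the Mki67 UMIs of the non-suspended members came from 1 cell. Top2a, a topoisomerase of dividing cells, stood at 103 and 176.5 CPM, and Ccnb2, a mitotic cyclin gene, at 9.75 and 46.7 CPM on 5 and 72 UMIs. At 1000 UMIs per cell the higher levels of Mki67 and Ccnb2 were not found, with log2 ratios of -0.10 and -0.27, and the 6 cell-cycle genes measured at that depth had a median of 0.22.

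By the named-gene ranking, the 10 genes highest with suspension were Fabp4, Crip1, Spata7, Smim4, Bola2, Fam111a, Crip2, Atp5k, Myadm and Hells, and the 10 lowest Upp1, C1qa, Slfn4, Gbp2, Ccl4, Rtp4, Isg15, Fbxo31, Ifi47 and Cxcr3. Of the 10 lowest, 4 belong to the interferon list. Some of the highest rest on few UMIs in non-suspended members: 3 each for Smim4, Fam111a and Hells, 7 for Spata7 and 8 for Fabp4. At 1000 UMIs per cell the log2 ratios of Smim4, Fam111a, Hells and Spata7 were 0.73, 0.83, 0.24 and 0.92. Those of Crip1, Crip2 and Myadm were 2.19, 2.21 and 2.31. Crip1, a small LIM-domain protein gene, was the most abundant of the 20. It stood at 2586 CPM in members without suspension and 12073 CPM with it, a log2 ratio of 2.22 (2.14 to 2.30), and at 1.498 in comparison cells. Cells without a Cd3 UMI held 1878 and 8532 CPM of Crip1, a log2 ratio of 2.18, so the higher level was not particular to members. Fabp4, a fatty acid carrier of adipocytes, macrophages and endothelial cells, stood at 15.6 and 398 CPM, but 60.5% of its UMIs in the suspended library came from 1 cell. The endothelial markers summed to 42.9 CPM in members without suspension and 195.9 CPM with it. Upp1, uridine phosphorylase 1, was lower, at 87.8 and 4.54 CPM, as was C1qa, a complement gene of macrophages with 54.8% of its non-suspended UMIs in 1 cell. Upp1 had log2 ratios of -2.54 in comparison cells and -3.70 in cells without a Cd3 UMI. Of the 20 genes, all but Fabp4 (-0.56) had the members' sign in comparison cells, with Fbxo31 at only -0.10. All 20 had that sign in cells without a Cd3 UMI, so the directions were not particular to members. Hk2, the hexokinase that starts glycolysis, stood at 25.4 and 109.6 CPM, and at 38.8 and 115 CPM in the Foxp3-negative T cells within the Cd3 and collagen limits. The glycolysis list as a whole had a median of -0.58 in members and -0.80 in comparison cells. Fkbp5 and Klf9, targets of the glucocorticoid receptor, stood at 1.804 and 1.66, but at 0.24 and 0.20 at 1000 UMIs per cell, and the 15 measured genes of that list had 6 above 0 and 9 below.

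**Figure D4:**
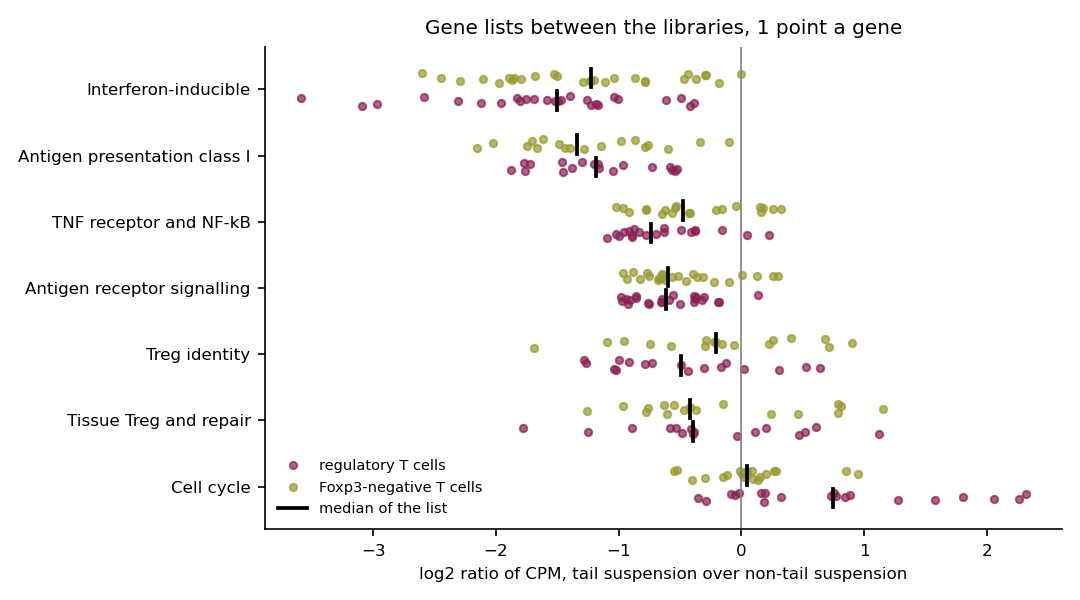
Log2 ratio of CPM in the suspended over the non-suspended library (horizontal axis) for the genes of 7 lists (vertical axis), with 1 point a gene, purple for regulatory T cells, olive for Foxp3-negative T cells, and black bars for list medians. All 26 interferon-inducible genes lie below 0 in members, with a median of -1.51, and the cell-cycle median is 0.74 in members and 0.05 in comparison cells.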

How the data were processed

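Droplet single-cell RNA-seq (10x Genomics) was made from 2 suspensions of collagenase-digested enthesis, per the labels' protocols. The authors deposited 1 matrix of raw UMI counts per library. Cell Ranger 5.0.1 and the GRCm38 build are named in the submitters' processing notes, while the matrix headers carry software version 3.1.0. Counting parameters are not given in the sources used here. Gene coordinates were taken from a GRCm38 annotation that matched 32158 of 32285 gene IDs, and promoter windows from RefSeq (GRCm38.p6).

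UMIs were summed over the cells of each group and library and expressed as CPM, with exact Poisson intervals. Log2 ratios carry exact conditional binomial intervals, and a group at 0 was set to a floor of 3 UMIs per group. Shares carry Clopper-Pearson intervals. A gene was measured with at least 20 UMIs over the 2 groups compared, and counted past 2-fold. No test was made, since each condition has 1 library. The steps were tested on simulated data. Python 3.11.15, numpy 2.4.6, scipy 1.17.1, pandas 2.3.3, scanpy 1.11.5 and matplotlib 3.10.9 were used.

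Named genes came from a ranking by the interval bound nearest to 0, with a UMI in at least 10% of the cells of the higher group, one sign at 1000 UMIs per cell, and without mitochondrial, ribosomal, haemoglobin, predicted and rule genes or genes at under 0.5 times their CPM in cells without Cd3. The first 15 higher and 10 lower genes against Foxp3-negative T cells, and 10 each way between libraries, were taken, with examples from 16 functional lists beside 10 marker lists. The members and lists were chosen with earlier results of these data known. Doublets were not removed. Scrublet marked 0 of 10947 cells without suspension, where it did not work, and 492 of 14483 (3.40%) with it, among them 6 members, and leaving those out was an alternative. B cells, macrophages and fibroblasts used as background held no Cd3 UMI and at least 3 Cd79a, Cd79b and Ms4a1 UMIs, at least 10 C1q UMIs, or at least 1% collagen UMIs without Ptprc. Alternatives changed cell filters, the rule's limits, the comparison cells, scaling, depth and the UMI minimum. Some genes of the lists are not reported here by name.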

Additional observations from a re-analysis of the deposited data

Results flagged for a closer look

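Some genes went opposite ways in the 2 settings of the same contrast, by at least 0.5 on the log2 scale in each and with both counting intervals clear of 0. The difference between the settings was not tested in any of them. In regulatory T cells over Foxp3-negative T cells, Areg stood at -0.75 without suspension and 0.68 with it, Ube2c at -2.00 and 0.73, Birc5 at -0.78 and 0.79, and Ccl4, a chemokine gene, at 0.52 and -0.94. In suspended over non-suspended cells, Izumo1r stood at -1.27 in regulatory T cells and 0.71 in Foxp3-negative T cells, Penk at -1.78 and 0.79, Ccr7 at -0.52 and 1.03, and Txk, a T cell kinase gene, at -0.65 and 0.78. Igfbp4 stood at 1.07 and -1.07, the proliferation gene Mki67 at 0.89 and -0.55, and Fabp4 at 4.67 and -0.56. Several of these directions did not hold elsewhere. Against the Foxp3-negative T cells within the Cd3 and collagen limits Areg with suspension was 0.10 (-0.13 to 0.33) and Ccl4 without suspension 0.31 (-0.03 to 0.64). At 1000 UMIs per cell Mki67 in suspended over non-suspended members was -0.10, and Ube2c without suspension was 0.52 in regulatory over Foxp3-negative T cells. Single cells held 60.5% of the Fabp4 UMIs of suspended members, 29.3% of the Penk UMIs of non-suspended members and 25.8% of their Ccl4 UMIs. Their part in these values was not tested.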

How the results depend on the processing

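Of the summary values, 92 under the alternatives stayed within 1.5 times the count or within the interval of the share, and 32 moved. Of 988 values for named genes in the comparison with Foxp3-negative T cells 10 reversed and 277 moved, and of 340 between libraries 2 reversed and 34 moved. The regulatory T cell share of all cells without suspension (0.658%) was 0.984% with at least 1000 genes per cell and 0.251% at 1000 UMIs. With suspension (1.40%) it was 1.001% with at least 2 Foxp3 UMIs, 0.856% with collagen under 0.1%, 1.14% without cells with B cell or macrophage markers and 0.337% at 1000 UMIs. The share of T cells (13.0% and 25.5%) was 24.3% and 48.3% against Cd4-positive, Cd8-negative cells and 9.85% and 15.1% at 1000 UMIs. With suspension it was also 19.6% with 2 Foxp3 UMIs, 17.3% with collagen under 0.1%, 30.03% against cells within the Cd3 and collagen limits and 28.7% without cells with over 2% of UMIs from other markers.

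The 216 genes higher and 811 lower than in Foxp3-negative T cells became 116 and 177 with no collagen limit, 129 and 149 against cells within the limits, 125 and 171 without cells with other markers, 78 and 127 at 1000 UMIs and 115 and 214 at 2000 UMIs, where fewer genes were measured. The lower count was 422 against Cd4-positive, Cd8-negative cells and 526 as a mean over cells. The 919 genes higher and 596 lower with suspension became 248 and 217 at 1000 UMIs, 371 and 315 at 2000 UMIs, and 414 and 314 at 50 UMIs per gene. Reversed values were stromal genes in the non-suspended library: Ecrg4 0.048 and Fstl1 0.016 with no collagen limit, Cxcl5 0.050, Cxcl14 0.45, Aspn 0.66, Fbln2 0.34 and Fstl1 0.090 against cells within the limits, and Cxcl14 0.67 and Fbln2 0.12 without cells with other markers. Postn was 0.074 within the limits in the suspended library. Between libraries C1qa was 0.34 without cells with B cell or macrophage markers and Ccl4 0.27 without cells with other markers. Where the construction of the alternative does not show it, the cause was not tested.

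No paired analysis was possible because each condition has 1 library. Depth limits the sparse genes: a transcript missing in a cell was not detectable at this depth rather than absent.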
